A study of Mus musculus with 4 samples.

Results

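The genes described here encode 8 proteins that bind methylated lysine 9 of histone H3 (H3K9) or work with those that do: the HP1 genes Cbx1, Cbx3 and Cbx5, the chromodomain genes Cdyl and Cdyl2, the HUSH subunit Mphosph8, the corepressor Trim28 and the zinc finger gene Wiz. They were found by gene symbol in the count table, where all 8 had a row among 26301 genes, and all 8 were among the 15444 genes that passed the filter on low counts. RNA was measured in 4 libraries of mouse embryonic stem cells (ESCs), 2 biological replicates of the WT line N6 and 2 of the REST-/- line N8. Each genotype is thus represented by 1 cell line, so a difference between the genotypes cannot be told apart from another difference between the lines. Serum, LIF and a fibroblast feeder layer supported both lines, and the RNA came from cells moved to gelatin without feeders. REST is a repressor that silences neuronal genes by binding RE1 elements and bringing in cofactors, among them enzymes of H3K9 methylation. The comparison asks whether the transcripts of the H3K9 methylation readers themselves differed when the gene for REST was disrupted.

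Methylated H3K9 marks heterochromatin and silenced genes and repeats. HP1 proteins bind the mark through a chromodomain and pair with each other and with partner proteins through a chromoshadow domain, which lets them bridge nucleosomes and recruit the enzymes that write the mark. In ESCs, TRIM28 is brought to retroviral repeats by zinc finger proteins and in turn recruits the methyltransferase SETDB1, while the HUSH complex spreads the mark, and CDYL and WIZ link the methyltransferases G9a (Ehmt2) and GLP (Ehmt1) to chromatin.

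The libraries held 22293966 to 30953863 counts on genes. Rest, the disrupted gene, had 255 and 233 CPM (counts scaled to a common library size, by TMM) in the WT libraries and 164 and 176 CPM in the REST-/- libraries, so its transcript was still counted in REST-/- ESCs. The pluripotency markers summed to 4781 to 4965 CPM in WT and 4268 to 4356 CPM in REST-/- ESCs, with 0 of 10 called, 5 above and 5 below 0 in log2 fold change, and 3 of 10 at an unadjusted p under 0.05 (6.71% of all genes tested): Zfp42 (705 and 541 CPM against 258 and 226), Nanog (360 and 347 against 261 and 254) and Klf4 (144 and 127 against 101 and 98.5). The 10 feeder fibroblast markers summed to 30.2 to 38.4 CPM in WT and 27.5 CPM in REST-/- replicate 2, with Lum at 0 in all 4 libraries. In REST-/- replicate 1, which stood apart, they summed to 111 CPM, mostly Col1a1 (46.1 CPM) and Col1a2 (28.5 CPM). The 10 primitive endoderm markers, mostly Col4a1 and Lama1, summed to 132 to 232 CPM in WT and 283 to 349 CPM in REST-/- ESCs. Of the primitive endoderm markers 0 were called and 4 had an unadjusted p under 0.05, Gata6, Pdgfra and Dab2 with log2 fold changes of 2.26, 2.10 and 1.34 and Hnf4a with -2.49. The 6 neural progenitor markers, mostly Nes, summed to 66.7 to 162 CPM in WT and 134 to 156 CPM in REST-/- ESCs, while Olig2 went from 158 and 172 counts to 1 and 0 without being called (adjusted p = 0.106 in edgeR's quasi-likelihood test). The part of these differences in the values below was not tested, and in bulk RNA fewer cells of a type and less RNA per cell cannot be told apart.

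Cbx3 stands apart from the other members in its sequence, since the mouse genome (NCBIM37, mm9) carries copies of its coding sequence without introns, so its count is uncertain where reads were shared with them. Its coding sequence of 552 bases had a match of at least 90% identity over at least 80% of its length at 11 other places in mm9. The 3 closest lie at chr14:74354807-74355358 on the minus strand (99.8% identity), chr1:58703532-58704083 on the plus strand (99.6%) and chr13:66965460-66966011 on the plus strand (96.2%). Coding bases 91 to 180, counted from the first base of the start codon, are printed for Cbx3, for these copies and for the other HP1 genes, from the GENCODE M1 transcripts and the mm9 genome. Capitals mark bases that differ from Cbx3.
Cbx3: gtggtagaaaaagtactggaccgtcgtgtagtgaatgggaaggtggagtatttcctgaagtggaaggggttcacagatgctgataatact
Copy on chromosome 14: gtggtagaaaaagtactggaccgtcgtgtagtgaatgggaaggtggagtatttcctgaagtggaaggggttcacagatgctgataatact
Copy on chromosome 1: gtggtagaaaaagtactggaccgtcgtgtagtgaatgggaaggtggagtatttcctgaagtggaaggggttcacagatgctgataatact
Copy on chromosome 13: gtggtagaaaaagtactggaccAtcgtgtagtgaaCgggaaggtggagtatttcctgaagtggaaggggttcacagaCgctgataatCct
Cbx1: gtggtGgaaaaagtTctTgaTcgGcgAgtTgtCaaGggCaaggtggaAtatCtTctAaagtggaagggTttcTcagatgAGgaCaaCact
Cbx5: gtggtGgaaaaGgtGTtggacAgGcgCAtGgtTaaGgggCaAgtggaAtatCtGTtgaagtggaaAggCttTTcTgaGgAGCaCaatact
The copies on chromosomes 14 and 1 were identical to Cbx3 over this stretch, and the copy on chromosome 13 differed at 4 bases. Cbx1 differed at 20 bases and Cbx5 at 27, so the HP1 genes were far less like each other than Cbx3 was like its copies.

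Over the whole coding sequences, Cbx1 and Cbx3 were identical at 71.4% of aligned bases, Cbx1 and Cbx5 at 70.1% and Cbx3 and Cbx5 at 70.7%, and no HP1 pair shared an exact run of more than 20 bases. Cdyl and Cdyl2 were identical at 64.5% of aligned bases, with a longest shared run of 14 bases. Of the 1840 windows of 50 bases along the Cbx3 transcript, 571 (31.03%) occurred exactly at another place in mm9, and of the windows of 100 bases 26.3% did. For each of the other 7 members this share was 0 at both lengths. Cbx1 has 1 copy of 92.7% identity on chromosome 8, and the remaining members have none at these limits. How the counting treated reads that map to several places is not given in the sources used here.

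No member was called different between the genotypes. In edgeR's quasi-likelihood test 0 of the 8 members had an adjusted p under 0.05, and 0 had an unadjusted p under 0.05. Among all genes tested 9 of 15444 (0.0583%) passed the first threshold and 6.71% passed the second. DESeq2 called 1.54% of all genes tested, and edgeR's exact test called 1.77% with tag-wise and 2.22% with common dispersion, each with 0 members. At an unadjusted p under 0.05 these tests had 5.70%, 6.48% and 6.95% of all genes, and again 0 members. The log2 fold changes of REST-/- over WT ran from -0.23 for Cdyl to 0.03 for Cbx5, with 6 members below 0 and 2 above. The median log2 fold change was -0.055, against -0.0047 for all genes tested, and the median absolute log2 fold change was 0.055, against 0.18. That absolute median of the members was 0.13 to 0.19 when 1 library was left out, and their median standard error was 0.16, against 0.28 for all genes tested. The members' median turned positive when WT replicate 1 (0.03) or REST-/- replicate 2 (0.02) was left out, and was -0.19 without WT replicate 2 and -0.13 without REST-/- replicate 1. In 2 of the 8 members, Cdyl and Trim28, the REST-/- libraries did not overlap the WT libraries, and 32.0% of all genes tested showed such a separation.

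**Figure D1:**
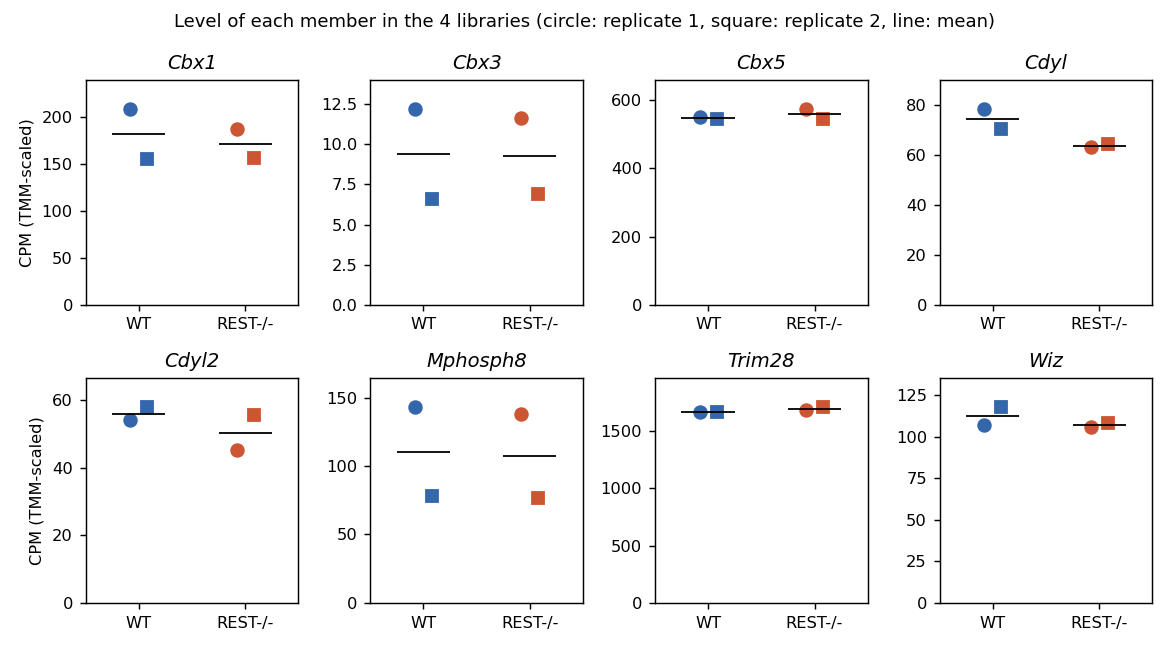
TMM-scaled CPM of each member in the 2 WT libraries (blue) and the 2 REST-/- libraries (red), with circles for replicate 1, squares for replicate 2 and a line at the mean of each genotype. Each panel has its own axis from 0. For Cbx3 and Mphosph8 the libraries numbered 1 lie far above those numbered 2 in both genotypes.

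A test with few replicates leaves wide limits, and these differed among the members. The 95% interval of the fold change stayed within 1.5-fold in either direction for 3 members, Cbx5, Trim28 and Wiz. For Cbx3 and Mphosph8 the interval reached both a halving and a doubling, so this fit, which sets the genotypes against the whole spread between libraries, does not bound a change of that size. For Cbx1, Cdyl and Cdyl2 the lower limits lay between 0.65 and 0.66 and the upper limits between 1.11 and 1.37. The sign of small differences turned with single libraries. Without WT replicate 1 the log2 fold change was 0.14 for Cbx1, 0.49 for Cbx3 and 0.45 for Mphosph8, and without REST-/- replicate 2 it was 0.04, 0.31 and 0.32. Cbx5 was at -0.00036 without REST-/- replicate 1 and Wiz at 0.0017 without WT replicate 2. Cdyl and Cdyl2 stayed negative and Trim28 positive whichever library was left out, but Cdyl2 was at -0.0090 without REST-/- replicate 1 and -0.32 without REST-/- replicate 2.

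**Figure D2:**
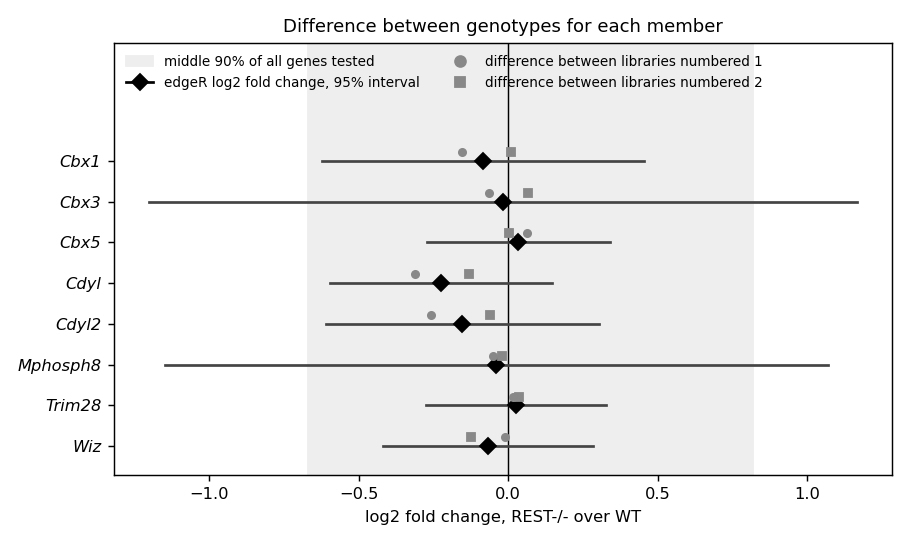
Log2 fold change of REST-/- over WT for each member. Diamonds and lines give the edgeR estimate with its 95% interval, grey symbols the difference between libraries of the same number, and the shaded band the middle 90% of all genes tested, from -0.67 to 0.82; all 8 estimates lie between -0.23 and 0.03, and the intervals of Cbx3 and Mphosph8 are the widest.

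Of the HP1 genes, Cbx5 encodes HP1α, Cbx1 HP1β and Cbx3 HP1γ, and of these HP1γ is also found in the bodies of active genes. Cbx5 lies on the minus strand at chr15:103021975-103070247 and drew 17036 and 14585 counts in WT ESCs and 14843 and 12088 counts in REST-/- ESCs. These were 550 and 545 CPM in WT and 574 and 546 CPM in REST-/- ESCs. The groups overlapped, and the fold was 1.02 (95% interval 0.83 to 1.26; log2 fold change 0.03, standard error 0.12, adjusted p = 1.00 in edgeR's quasi-likelihood test).

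Cbx1 lies on the plus strand at chr11:96650441-96669954 and had 208 and 155 CPM in the WT libraries and 187 and 156 CPM in the REST-/- libraries. The 2 libraries numbered 1 were the high ones in both genotypes, and the groups overlapped. Its fold was 0.94 (95% interval 0.65 to 1.37; log2 fold change -0.08, standard error 0.20, adjusted p = 1.00 in edgeR's test). The pseudogene Gm11517 lies within its span on the other strand, and the strand setting of the counting is not given in the sources used here, so reads of the overlapping genes could not be told apart.

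Cbx3 lies on the plus strand at chr6:51420359-51433703. It drew 378 and 176 counts in WT ESCs and 301 and 153 counts in REST-/- ESCs, the lowest counts of the 8 members. Scaled, these were 12.2 and 6.57 CPM in WT and 11.7 and 6.91 CPM in REST-/- ESCs. The level in replicate 1 was 1.86 times that in replicate 2 in WT and 1.69 times in REST-/- ESCs, whereas the means of the genotypes were 9.39 ± 3.99 CPM and 9.28 ± 3.35 CPM (SD, n = 2 each). The fold was 0.99 (95% interval 0.43 to 2.24; log2 fold change -0.02, standard error 0.45, adjusted p = 1.00 in edgeR's test).

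RefSeq names 6 Cbx3 pseudogenes, of which 4 had a row in the count table. Cbx3-ps3 on chromosome 4 and Cbx3-ps6 on chromosome 14, the chromosome of the closest copy, had no row, so they are not in the sum below. Cbx3-ps7 drew 249 and 162 counts in WT ESCs and 213 and 160 counts in REST-/- ESCs, in the range of Cbx3 itself. Cbx3-ps8 had 10 to 26 counts, and Cbx3-ps4 and Cbx3-ps5 had at most 2. When the rows of these copies were added to Cbx3, a step chosen after the values were seen, the sum was 21.2 and 13.4 CPM in WT and 20.7 and 14.6 CPM in REST-/- ESCs. The genotypes then differed by 0.04 on the log2 scale, against 0.0021 for Cbx3 alone by the same difference of means of log2 CPM. The part of the copies in the low count of Cbx3 was not tested.

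Levels of different genes were compared as CPM per kb of exon. The HP1 genes summed to 114 and 98.8 CPM per kb over the WT libraries and 111 and 99.2 over the REST-/- libraries. The genotypes overlapped, and the mean log2 sums differed by -0.013 (exact permutation test, two-sided p = 1; the smallest p that 2 against 2 libraries allow is 0.33). The sign of this difference was not determined: it was 0.0039 per coding length and 0.00051 with library size alone, and ran from -0.11 without WT replicate 2 to 0.09 without WT replicate 1. Cbx5 made up 53.8% and 61.2% of the sum in WT and 57.4% and 61.1% in REST-/- ESCs. Cbx1 made up 36.7% to 42.9% over the 4 libraries. Cbx3 held 3.33% and 2.06% in WT and 3.25% and 2.16% in REST-/- ESCs. The shares depend on the length used: per length of 1 transcript Cbx1 made up 65.5% to 70.7% and Cbx5 26.6% to 32.7%, and per coding length Cbx1 made up 22.5% to 27.6% and Cbx5 70.7% to 76.5%. At each of these lengths the makeup of the HP1 sum separated the libraries numbered 1 from those numbered 2, and did not separate the genotypes.

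Cdyl and Cdyl2 encode paralogs with a chromodomain and a domain related to enoyl-CoA hydratases. Cdyl, on the plus strand at chr13:35751731-35965933, had the most negative difference of the 8 members with all 4 libraries, while Cdyl2 or Mphosph8 was lower whenever 1 library was left out. It drew 2429 and 1892 counts in WT ESCs and 1629 and 1429 counts in REST-/- ESCs, which were 78.5 and 70.6 CPM against 63.0 and 64.5 CPM. Both REST-/- libraries lay below both WT libraries. The fold was 0.86 (95% interval 0.66 to 1.11; log2 fold change -0.23, standard error 0.14, unadjusted p = 0.176 and adjusted p = 1.00 in edgeR's quasi-likelihood test). In this fit, whose spread edgeR sets from genes of like level as well as from Cdyl itself, the difference was not distinguishable from that spread. The alternative fit with the replicate number as a block, given below, had a lower adjusted p for Cdyl but did not call it. The log2 difference of Cdyl was -0.31 between the libraries numbered 1 and -0.13 between those numbered 2, and lay between -0.30 and -0.15 when each library was left out in turn.

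Cdyl2, on the minus strand at chr8:119098301-119256891, had 54.2 and 57.9 CPM in the WT libraries and 45.2 and 55.5 CPM in the REST-/- libraries. The low library was REST-/- replicate 1, the one with the high fibroblast markers, whose part in this value was not tested, and the other REST-/- library lay between the WT libraries. Its fold was 0.90 (95% interval 0.65 to 1.23; log2 fold change -0.15, standard error 0.17, adjusted p = 1.00 in edgeR's test). The 759 tested genes of chromosome 8 had a median log2 fold change of -0.13, close to the value of Cdyl2, against medians of -0.02 to 0.08 on the other autosomes. The part of this shift in the value of Cdyl2 was not tested.

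Within a library, the ratio of Cdyl to Cdyl2 per kb does not depend on the scaling of the library. It was 0.884 and 0.744 over the WT libraries and 0.852 and 0.709 over the REST-/- libraries, so Cdyl2 had the higher level per length of exon in all 4. This direction turned with the length: Cdyl was higher in 1 of 4 libraries per length of 1 transcript, with ratios of 0.813 to 1.01, and in 3 of 4 per coding length, with ratios of 0.986 to 1.23. The log2 ratio differed by -0.062 between the genotypes (exact permutation test, two-sided p = 0.667; the smallest possible p is 0.33). The difference was 0.06 without WT replicate 1, -0.19 without WT replicate 2, -0.19 without REST-/- replicate 1 and 0.07 without REST-/- replicate 2, and the choice of length does not enter it.

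Mphosph8 encodes MPP8, the chromodomain subunit through which the HUSH complex binds H3K9me3. It lies on the plus strand at chr14:57287085-57316267, with the lincRNA Gm16973 on the other strand within its span. It drew 4422 and 2089 counts in WT ESCs and 3563 and 1703 counts in REST-/- ESCs, or 143 and 78.0 CPM against 138 and 76.9 CPM. The library numbered 1 was 1.83 times the one numbered 2 in WT and 1.79 times in REST-/- ESCs, while the libraries of 1 number differed between the genotypes by -0.05 and -0.02 on the log2 scale. The fold was 0.97 (95% interval 0.45 to 2.10; log2 fold change -0.04, standard error 0.42, adjusted p = 1.00 in edgeR's test).

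Trim28 encodes the corepressor KAP1, which carries KRAB zinc finger proteins' silencing to retroviral repeats and imprinted regions. It lies on the plus strand at chr7:13609501-13616384 and drew 51472 and 44529 counts in WT ESCs and 43441 and 37724 counts in REST-/- ESCs. These were 1663 and 1663 CPM in WT and 1681 and 1703 CPM in REST-/- ESCs. The REST-/- libraries were both higher and did not overlap the WT libraries, by a fold of 1.02 (95% interval 0.83 to 1.25; log2 fold change 0.03, standard error 0.11, adjusted p = 1.00 in edgeR's test). This separation is small beside the interval, which edgeR sets from the spread over genes of like level as well as from Trim28 itself.

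Wiz encodes a zinc finger protein that joins the G9a and GLP complex. It lies on the minus strand at chr17:32491000-32526384, where the lincRNA Gm17561 overlaps it on the other strand. It had 107 and 118 CPM in the WT libraries and 106 and 108 CPM in the REST-/- libraries. The highest library was WT replicate 2, and the groups overlapped. The fold was 0.95 (95% interval 0.75 to 1.22; log2 fold change -0.07, standard error 0.13, adjusted p = 1.00 in edgeR's test).

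Per length of exon, Trim28 had the highest level of the 8 members, with a WT mean of 411 CPM per kb, above 99.6% of the 14176 tested genes with a known exon length. It was followed by Cbx5 at 60.8, Cbx1 at 42.5, Mphosph8 at 30.8, Cdyl2 at 23.3, Cdyl at 18.9 and Wiz at 12.2 CPM per kb. Cbx3 was the lowest, at 2.91 CPM per kb, above 35.1% of those genes and the only member below their median of 6.44. Neighbours in this order overlapped over the 4 libraries for Cbx1 with Mphosph8, Mphosph8 with Cdyl2 and Cdyl2 with Cdyl, but within each library Cbx1 was above Mphosph8 and Cdyl2 above Cdyl in 4 of 4, and only Mphosph8 and Cdyl2 changed places, with Cdyl2 higher in 2 of 4. Trim28 stood 6.76 times above Cbx5 by the WT means, and Wiz 4.18 times above Cbx3. The order depends on the length used. With the length of 1 transcript per gene, Cbx1 (145 CPM per kb) came before Cbx5 (62.2), and with coding length Cbx5 (950 CPM per kb) came before Trim28 (664) and Cdyl (41.8) before Cdyl2 (37.1). Cbx3 had the lowest WT mean at all 3 lengths, but with coding length it was above Wiz in 2 of 4 libraries. The value of Cbx3 is uncertain where its reads were shared with its copies.

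**Figure D3:**
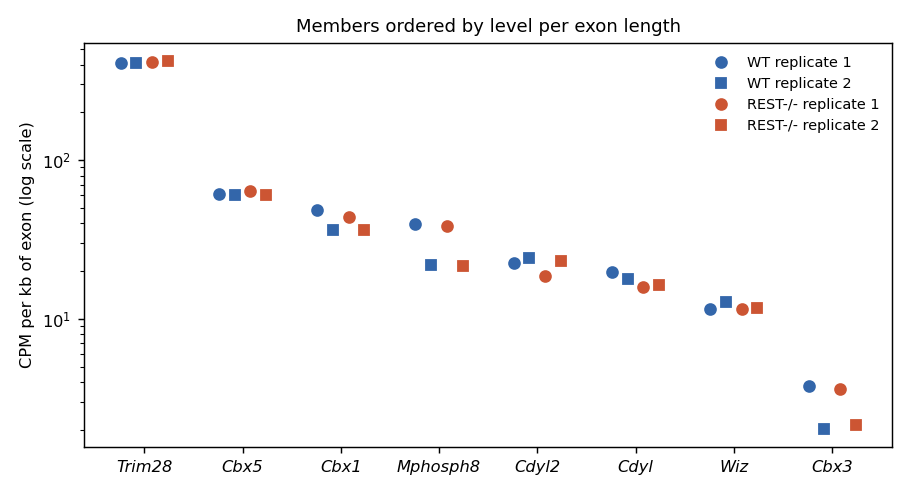
CPM per kb of exon (log scale) of the 8 members in the 4 libraries, ordered by the WT mean. On this scale Trim28 lies above the other members in every library and Cbx3 below them, while the ranges of Cbx1, Mphosph8, Cdyl2 and Cdyl overlap with their neighbours.

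Among the enzymes that write the mark and their cofactors, 0 of 9 tested genes were called in either direction by edgeR's quasi-likelihood test, and their median log2 fold change was -0.016. Without WT replicate 1 this median was 0.24; it was 0.21 without REST-/- replicate 2 and -0.12 without WT replicate 2. The enzymes that make H3K9me2 form a complex with WIZ. Ehmt2, encoding G9a, had 245 and 295 CPM in WT and 325 and 399 CPM in REST-/- ESCs, with both REST-/- libraries above both WT libraries (log2 fold change 0.42, standard error 0.18, adjusted p = 0.808). A separation of this kind, in either direction, was seen in 32.0% of all genes tested. Ehmt1, encoding GLP, had 156 and 179 CPM in WT and 168 and 182 CPM in REST-/- ESCs (log2 fold change 0.06), and Zfp644, whose protein works with WIZ, had 71.0 and 35.1 CPM against 69.0 and 35.2 CPM.

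Of the trimethylating enzymes, Setdb1, the partner of TRIM28, had 244 and 210 CPM in WT and 236 and 213 CPM in REST-/- ESCs (log2 fold change -0.02). Atf7ip, which stabilises SETDB1 in the nucleus, was at 127 and 127 CPM in WT and 106 and 104 CPM in REST-/- ESCs (log2 fold change -0.28, standard error 0.12, adjusted p = 0.856 in edgeR's quasi-likelihood test). The genotypes did not overlap for Atf7ip, nor for Suv39h1, as for 32.0% of all genes tested. Atf7ip2, a relative of Atf7ip, was at 4.88 to 12.5 CPM. The enzymes of pericentric heterochromatin, Suv39h1 and Suv39h2, had log2 fold changes of -0.08 and 0.12, and Setdb2 had 0.03. Suv39h1 is X-linked, and the median of the 539 tested genes of chromosome X was -0.40.

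The HUSH partners of Mphosph8 were 3 genes, of which 0 were called, with a median log2 fold change of 0.16, or 0.09 without REST-/- replicate 1. Fam208a, which encodes the scaffold TASOR, had 153 and 60.4 CPM in WT and 124 and 55.7 CPM in REST-/- ESCs, high in the same libraries as Mphosph8. Pphln1, encoding periphilin, and Morc2a, encoding a compacting ATPase that works with the complex, had log2 fold changes of 0.24 and 0.16, and in both genes the REST-/- libraries lay above the WT libraries. Of all genes tested, 32.0% had genotypes that did not overlap, in either direction.

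Of the 4 tested relatives and recruiters of TRIM28, 0 were called, and the median log2 fold change was -0.09. That median was 0.45 without WT replicate 1, -0.39 without WT replicate 2, -0.47 without REST-/- replicate 1 and 0.22 without REST-/- replicate 2. Zfp57, a KRAB zinc finger protein that guards imprints, had 543 and 215 CPM in WT and 432 and 219 CPM in REST-/- ESCs, and Zfp809, which directs silencing of retroviruses, had 37.1 and 19.3 CPM against 33.9 and 19.4 CPM. Both were high in the libraries numbered 1 of both genotypes, as Mphosph8 and Cbx3 were. The TRIM28 relatives Trim24 and Trim33 had log2 fold changes of -0.09 and 0.24.

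The enzymes that remove the mark and the other readers gave no calls either. Of the 8 tested H3K9 demethylases 0 passed the threshold, with a median log2 fold change of -0.04, or -0.0072 without WT replicate 1 and -0.00014 without WT replicate 2; Kdm4d did not pass the filter on low counts. Jmjd1c had 229.5 and 159.8 CPM in WT and 311 and 233 CPM in REST-/- ESCs (log2 fold change 0.48, adjusted p = 0.925 in edgeR's test), Kdm4a had a log2 fold change of 0.11, Kdm3a -0.26 and the X-linked Phf8 -0.31. Kdm7a had 0.11 as well. Of the 10 HP1 partners and other readers, 0 were called and the median was -0.08, or 0.06 without WT replicate 2, -0.02 without REST-/- replicate 1 and -0.04 without REST-/- replicate 2. Uhrf1, which reads H3K9 methylation for maintenance DNA methylation, had 505 and 492 CPM in WT and 366 and 401 CPM in REST-/- ESCs, and was the 1 gene of the list with an unadjusted p under 0.05 (edgeR log2 fold change -0.38, standard error 0.12, unadjusted p = 0.0305, adjusted p = 0.678). Among all genes tested 6.71% passed that unadjusted threshold. Chd4 and Adnp, subunits of a remodelling complex that binds HP1, had log2 fold changes of 0.18 and 0.04, and Uhrf2 had one of -0.22, as did the chromatin assembly gene Chaf1b.

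**Figure D4:**
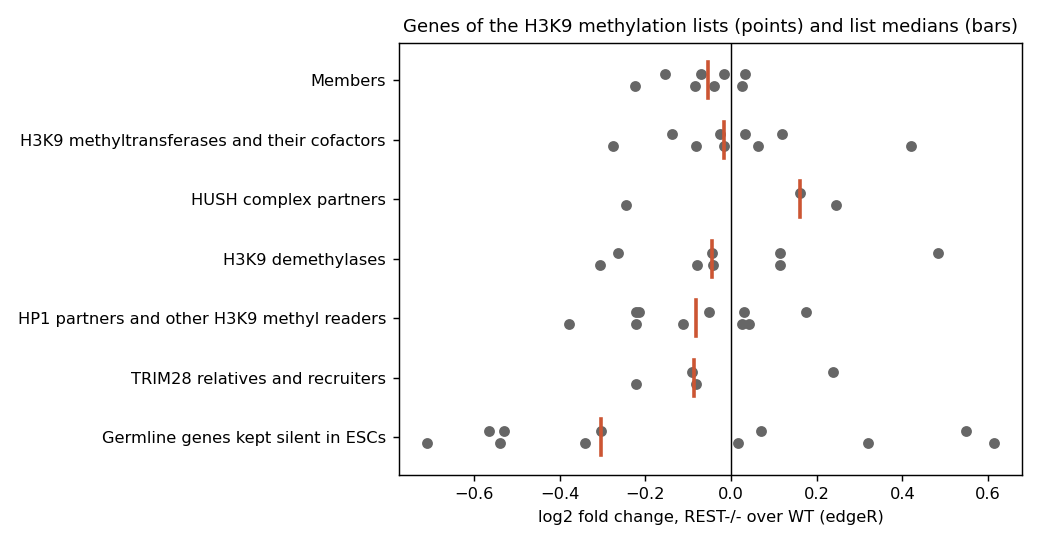
Log2 fold change of REST-/- over WT for each tested gene of the lists around H3K9 methylation (points) with the median of each list (bar). The 8 members lie between -0.23 and 0.03, the 9 methyltransferases and cofactors between -0.28 and 0.42, and the germline genes between -0.71 and 0.61.

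Germline genes are silenced in ESCs in part by H3K9 methylation and by the proteins described here. Of 11 such genes tested 0 were called, 5 had a positive and 6 a negative log2 fold change, and the median was -0.30. That median was 0.70 without WT replicate 1, -0.58 without WT replicate 2, -0.90 without REST-/- replicate 1 and 0.11 without REST-/- replicate 2. They summed to 91.5 and 43.5 CPM in the WT libraries and 94.7 and 46.8 CPM in the REST-/- libraries, so the sum followed the library number and overlapped between genotypes. Tdrd1 and Ddx4, which act in the piRNA pathway, had the largest positive log2 fold changes, 0.61 and 0.55, and Sycp1, a protein of the synaptonemal complex, and Dazl, an RNA-binding protein of germ cells, the most negative, -0.71 and -0.56.

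Matches to a motif of RE1 elements were sought near the members' start sites, since REST acts from these elements. The motif GGNGCTGTCCANNG, read from the mm9 sequence at the RE1 positions listed for this study and searched on both strands, had 1502 matches at all 11 of its informative positions. The paper scored those positions against the full RE1 consensus. This motif keeps only bases with a share of at least 0.5 at them, so it may not span the whole element. Within 20 kb of a start site 0 of the 8 members had such a match, where 4.95% of the 14176 tested genes with a position had one. With 1 mismatch allowed, the motif had 40419 matches in mm9. Of the members 6 of 8 then had a match within 20 kb, against 63.8% of those genes, and the nearest lay 491 bp from a start of Cdyl. Within 1 kb this made 1 of 8 members, against 12.4% of the genes. These shares of the members lie near those of all genes, and a match of letters is not evidence of binding.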

How the data were processed

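RNA-seq of 2 WT and 2 REST-/- ESC libraries (TruSeq, HiSeq) was used. The authors mapped reads with Subread and deposited whole-number counts per Entrez gene from featureCounts, without normalization; the submitters' processing notes name mm9. Rows without an identifier (368, with no counts) were left out. The genome annotation, strand setting and treatment of multi-mapped reads are not given in the sources used here. Counts were compared with edgeR 4.0.16 in R 4.3.3 (TMM, filterByExpr, quasi-likelihood test with no replicate block, Benjamini-Hochberg adjusted p under 0.05 over all genes). CPM per kb used exon lengths of GENCODE M1, with other lengths as an alternative chosen after seeing the data, and copies were sought with BLAST+ 2.17.0. DESeq2 1.42.0, edgeR's exact test, other scalings and filters, a block and leaving out each library were alternatives. Intervals are 95%. Only edgeR's quasi-likelihood test was checked on simulated data, which held no difference shared by libraries of the same number.

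The members and lists were chosen with earlier results of these data known. All members, Rest, all genes of the methyltransferase, HUSH and TRIM28 lists, and the 2 highest and 2 lowest log2 fold changes (at a mean of 1 CPM or more) of the demethylase, HP1 partner and germline lists were named; Cbx3 pseudogenes, the cell type markers, Kdm7a and Chaf1b were named besides, after their values were seen. The libraries held 22293966 to 30953863 counts, where 3 counts are 0.0969 to 0.135 CPM. The authors call the replicates biological. The list of Polycomb chromodomain genes is not reported here.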

Additional observations from a re-analysis of the deposited data

How the results depend on the processing

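Under every alternative 0 members were called, and with all 4 libraries kept each member's edgeR or DESeq2 log2 fold change held its sign; for Cbx3 the difference of mean log2 CPM was 0.0021, and 0.04 with its copies added, against -0.02 in edgeR. The lowest adjusted p of any member was 0.0699, for Cdyl with the replicate number as a block. That block called 2621 genes (17.0%; 1308 higher, 1313 lower), among them 0 members, with 1 member (and 31.1% of all genes) at an unadjusted p under 0.05; the difference between libraries 1 and 2 correlated between the genotypes at r = 0.81 over 15444 genes, but no label links same-numbered libraries and 2 pairs are too few to settle it. The count of all genes called, 9 (8 higher, 1 lower), was 53 (49 and 4) with no filter, 3 (3 and 0) with at least 10 counts in every library, 274 (203 and 71) by the exact test of edgeR at tag-wise dispersion and 343 (246 and 97) at common dispersion, and 238 (180 and 58) by DESeq2. Leaving out each library in turn, with the lone sample assumed to vary like the others, gave 60 to 113 calls (54 to 88 higher, 6 to 25 lower). The log2 fold change then ran from -0.28 to 0.14 for Cbx1, from -0.44 to 0.49 for Cbx3 and from -0.52 to 0.45 for Mphosph8, positive without WT replicate 1 or REST-/- replicate 2. It ran from -0.00036 to 0.065 for Cbx5 (lowest without REST-/- replicate 1) and from -0.14 to 0.0017 for Wiz (highest without WT replicate 2). List medians ran from -0.12 to 0.24 for the methyltransferases, from -0.094 to 0.057 for the HP1 partners, from -0.47 to 0.45 for the TRIM28 relatives and from -0.90 to 0.70 for the germline genes. The HP1 sum moved between -0.11 and 0.09. Depth was similar across libraries, and the number of libraries limits the precision.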

Other observations

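Both Cbx3 and Cbx5 start within 1 kb of a gene read in the opposite direction that encodes an hnRNP splicing protein. Hnrnpa2b1 begins 466 bp from Cbx3 in the annotation. It had 1465 and 1119 CPM in the WT libraries and 1535 and 1195 CPM in the REST-/- libraries (log2 fold change 0.08, standard error 0.21, adjusted p = 1.00 in edgeR's quasi-likelihood test), and like Cbx3 it was higher in the libraries numbered 1. Hnrnpa1 begins 698 bp from Cbx5 and had 93.8 and 38.9 CPM in WT and 71.1 and 41.8 CPM in REST-/- ESCs (log2 fold change -0.23, standard error 0.50, adjusted p = 1.00 in the same test). It too was higher in the libraries numbered 1, whereas Cbx5 differed by a factor of 1.01 between the WT libraries and of 1.05 between the REST-/- libraries. None of the other 6 members has an annotated protein-coding divergent neighbour within 1 kb, and other types of gene were not searched. Both neighbours were chosen after their values were seen.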
